A study of Homo sapiens with 6 samples.

Results

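The 10 genes studied were SLC7A1, SLC7A2, SLC7A5, SLC7A6, SLC7A11, SLC3A2, SLC1A4, SLC1A5, SLC38A1 and SLC38A2. They encode carriers that move amino acids across the plasma membrane or, for SLC3A2, the heavy chain of such carriers. All were followed in Hep-G2 cells carrying a hairpin against CLGN. They were taken by gene name from a table of 58735 genes, and all 10 were found. The set was built around SLC7A1, selected on its difference between sh-NC and sh-CLGN in these same libraries. The differences of the members between the groups are therefore given as a description, with standard errors and without p-values. Where members are counted as called, the adjusted p limit only sorts them.

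RNA was sequenced from 6 libraries, 3 sh-NC and 3 sh-CLGN, of Hep-G2, a human liver tumour line whose cell type the labels give as hepatocytes. Both groups were transduced with lentivirus and kept under puromycin, sh-NC with a control hairpin and sh-CLGN with a hairpin against CLGN, which encodes calmegin, a lectin chaperone of the endoplasmic reticulum. The genotype is labelled WT in sh-NC and CLGN knock down in sh-CLGN, each group rests on 1 hairpin sequence, and all 6 libraries share the batch label 0DAY. Nothing states that the 3 libraries of a group came from separate cultures. P-values and standard errors then measure only the spread between these libraries, which may be technical.

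Cells take up cationic amino acids such as arginine and lysine mainly through the CAT carriers, of which SLC7A1 (CAT-1) is the one found in most dividing cells and SLC7A2 (CAT-2) the one typical of liver. SLC7A5, SLC7A6 and SLC7A11 are light chains that reach the membrane only when disulfide-linked to the heavy chain encoded by SLC3A2 (CD98), and as pairs they exchange one amino acid for another. SLC1A4 and SLC1A5 exchange neutral amino acids, and SLC38A1 and SLC38A2 pump glutamine and other small neutral amino acids inward with sodium. Transcription of several of these genes is known to be raised by ATF4 when amino acids run short, by NRF2 under oxidative stress, and by MYC in growing cells.

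Short stretches of these transcripts match the hairpin, and they are printed here because SLC7A1, the member with the largest fall, carries such a match. The guide strand was read as the complement of the stated hairpin target. The letters TACCACA, which pair with guide bases 2 to 8, occur in the longest annotated 3′ UTR of 4 of the 10 members (SLC7A1, SLC7A2, SLC7A5 and SLC38A1, which has 2 such matches), against 10.8% of the 10951 tested genes with an annotated 3′ UTR. The longest 3′ UTRs of the members run from 520 to 7859 bases, with SLC7A1 at 5070, and the median of the tested genes was 1606 bases. Among the members only SLC3A2 (520) and SLC1A5 (627) lie below that median, and the 4 with the match lie above it. The shares with a match were not adjusted for length. The 25-base windows below are on GRCh38, all on the minus strand and all in the last exon of the gene, with the match in capitals.
SLC7A1, chr13:29514004-29514028: ccagatgagTACCACAaaacagtgt
SLC7A5, chr16:87832520-87832544: cctcattgcTACCACAgacttgcac
SLC38A1, chr12:46188327-46188351: cctagctggTACCACAtctattccc
SLC38A1, chr12:46183269-46183293: caatacatgTACCACActactgttt

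All 4 members with TACCACA were lower in sh-CLGN, and of the 6 without it 3 were lower, 2 were higher and 1 was not called. Over the tested genes with an annotated 3′ UTR the share called lower was 43.8% with the letters and 43.5% without them. Moving the match by a base either way gave ACCACAA (guide bases 1 to 7) in 3 of 10 members against 11.8% of genes, and ATACCAC (bases 3 to 9) in 1 of 10 against 8.06%. The share called lower with and without the letters was 43.7% and 43.5% for ACCACAA, and 49.4% and 43.0% for ATACCAC. The part of the hairpin in the values below was not tested beyond these counts.

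Promoters were read for 8 of the 10 genes from RefSeq (GRCh38.p14), as 250 bases before to 50 after each of 14 annotated starts. SLC7A2 and SLC7A11 have no entry. Each was searched on both strands for TGATGNAAN, the form of the C/EBP-ATF response element through which ATF4 acts, where N is any base. It occurred in 5 of the 14 promoters, 1 each of SLC7A1, SLC1A4, SLC1A5, SLC3A2 and SLC38A1, against 3.61% of all 35116 promoters in the table. The 30-base windows are given in the direction of the gene with the matched letters in capitals.
SLC7A1, chr13:29595662-29595691: ggcgcactgcTGATGAAACctggcgccgga
SLC38A1, chr12:46266501-46266530: cagacccgaaTGATGAAAAgggatcagcta
SLC1A4, chr2:64989381-64989410: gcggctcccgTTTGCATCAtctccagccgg
SLC1A5, chr19:46784892-46784921: aggaagtggcTGATGCAAGctgtccagggt
SLC3A2, chr11:62881719-62881748: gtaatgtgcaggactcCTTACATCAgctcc

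In SLC7A1 the match covers bases 8 to 16 of the transcript, and the RefSeq start is the start of the gene in GENCODE. The starts used for SLC1A4, SLC38A1, SLC1A5 and SLC3A2 lie 922, 3501, 3780 and 25597 bases inside the annotated genes, so these windows belong to internal starts. SLC1A4 and SLC3A2 match on the opposite strand. Of the 5 genes with the match 4 were lower and 1, SLC3A2, was higher. Of the other 3 genes with a promoter 1 was lower, 1 higher and 1 not called. Over all tested genes 39.0% were called lower and 26.7% higher. The shares among all genes with and without the match were not computed. A link between the match and the change was not tested. The antioxidant response core TGACNNNGC, bound by NRF2, was found in 5 of the 14 promoters against 13.3% of all promoters, in SLC7A1, SLC7A5, SLC7A6 with 2 matches, SLC1A5 and SLC3A2. The E-box CACGTG, bound by MYC with MAX and by MLX partners, was found in 2 promoters, of SLC7A5 and SLC1A5, against 7.26%. No match overlapped one of another motif.

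The libraries held 14955816 to 16244639 reads in sh-NC against 15086344 to 15675776 in sh-CLGN, recovered from the deposited FPKM. Genes with a read numbered 23578 to 23793 in sh-NC against 26814 to 27006 in sh-CLGN, and mitochondrial genes took 3.25% to 4.02% and 5.49% to 5.80% of reads. These differences moved with the groups and their part in the results was not tested. CLGN fell from 23.8 ± 2.54 to 8.98 ± 0.453 FPKM (SD, n = 3 each), to 37.8% of sh-NC (log2 fold change -1.31, SE 0.08, limma adjusted p = 8.3e-06). Summed FPKM of 10 hepatocyte markers was 7069 to 7301 in sh-NC against 7149 to 7615 in sh-CLGN. Singly, 3 of them were called higher, 6 lower and 1 not, at an adjusted p of at most 0.05. Over all tested genes 26.7% were called higher and 39.0% lower. The median log2 fold change of the hepatocyte markers was -0.33, beside -0.08 over all tested genes. Of 12 fibroblast markers 5 were tested and all 5 were called higher. The fibroblast sum was 7.19 to 8.61 in the controls and 48.6 to 50.01 in sh-CLGN, most of it COL1A2. FAP and POSTN had no read in any library, and COL6A3, DCN and THY1 had at most 3 reads in every library. The sums of 7 endothelial markers were 3.44 to 3.75 and 2.40 to 2.79 FPKM, with KDR and ERG at 0, and those of 8 leukocyte markers 1.45 to 1.93 and 0.998 to 1.33. Whether cells of another type contributed to the transporter values was not tested.

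All 10 members passed the filter on low values, with 499 to 18748 reads per library. Of the 10, 7 were lower in sh-CLGN and 2 were higher at an adjusted p no larger than 0.05, against 39.0% and 26.7% of the 13074 genes tested. That background turned over with the scaling, with 3923 genes lower and 4285 higher under TPM, and 26.2% lower and 37.9% higher when scaled by read totals. Asking also for a log2 fold change of 1 or more in size left 4 lower, SLC7A1, SLC7A5, SLC7A11 and SLC38A1, and 0 higher, where 3.19% and 3.09% of tested genes passed. These counts moved with the scaling, to 2 lower and 1 higher (SLC3A2) under quantile normalization and under read totals, where SLC7A11 and SLC38A1 no longer passed, to 3 lower and 1 higher under TPM, where SLC38A1 did not, and to 4 lower and 1 higher after the GC correction. Without sh-NC replicate 3 they were 2 lower and 0 higher. In 7 members every sh-CLGN library lay below every sh-NC library, in 2 every one lay above, and in SLC7A6 the groups overlapped. The same was true of 41.5% of tested genes below and 28.7% above. The median log2 fold change of the members was -0.76, beside -0.08 over all tested genes. Since the contrast chose the set, nothing about the set is read from these counts.

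**Figure D1:**
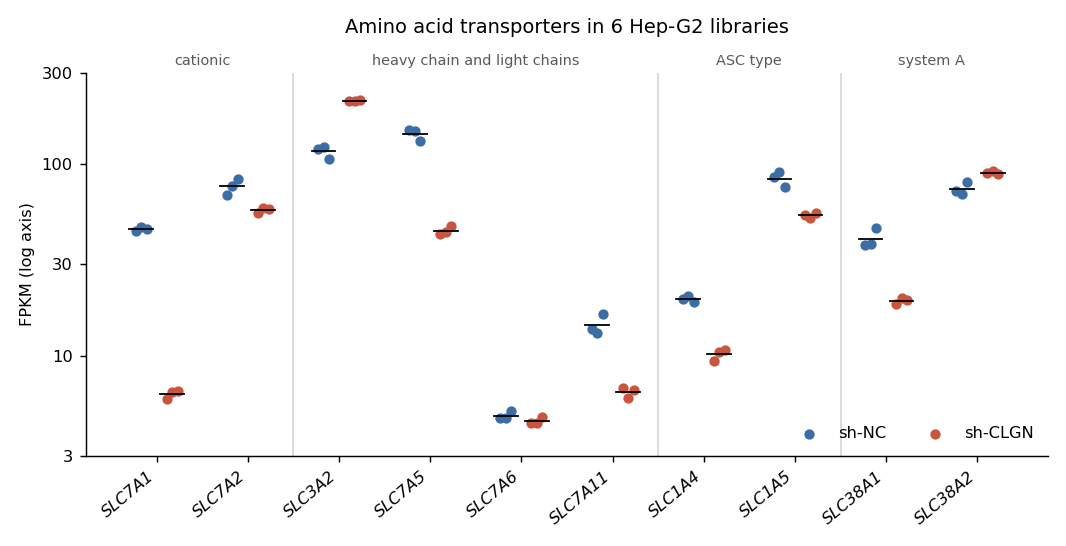
FPKM of each of the 10 genes in the 6 libraries, on a log axis, with a point for each library and a bar for the mean of each group. SLC7A1 lies near 46.0 in sh-NC and 6.32 in sh-CLGN, SLC3A2 and SLC38A2 are higher in sh-CLGN, and the points of SLC7A6 overlap.

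SLC7A1, the widespread importer of arginine, lysine and ornithine (ENSG00000139514, chr13:29509410-29595688, minus strand), stood at 45.0, 47.0 and 46.0 FPKM in sh-NC and at 5.92, 6.495 and 6.55 in sh-CLGN. The groups were far apart and the spread within each was small. The mean went from 46.0 ± 0.997 to 6.32 ± 0.348 FPKM (SD, n = 3 each), 13.7% of sh-NC or 7.27-fold lower, with a log2 fold change of -2.68 (SE 0.05). With the pseudocount of 1 and the deposited scaling it ranked 1 among the falls of all tested genes. It ranked 7 with a pseudocount of 0.1, 6 with voom, 3 under TPM and under quantile normalization, and 2 under read totals. With single libraries left out it ranked 1 or 2. The values rest on 4828 to 5480 reads in sh-NC against 773 to 819 in sh-CLGN. SLC7A1 was above 92.2% of the tested genes in sh-NC and above 52.7% in sh-CLGN. In bulk RNA, less transcript per cell and fewer cells carrying it cannot be told apart.

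SLC7A2, the cationic carrier of liver (chr8:17497088-17570573, plus strand), stood at 69.2, 77.1 and 83.5 FPKM in sh-NC and at 55.8, 59.4 and 58.5 in sh-CLGN. The groups did not touch, but the gap was narrow beside the spread of sh-NC. The means were 76.6 ± 7.19 and 57.9 ± 1.89, with a log2 fold change of -0.39 (SE 0.07). Under quantile normalization it was -0.11 and no longer called. Together the pair went from 123 ± 7.81 to 64.2 ± 2.23 FPKM. SLC7A1 made up 37.6% ± 1.95 of that sum in sh-NC against 9.84% ± 0.236 in sh-CLGN (SD, n = 3 each). SLC7A2 had the higher FPKM of the pair in every library.

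The heavy chain SLC3A2 (chr11:62856102-62888875, plus strand) stood at 120, 124 and 107 FPKM in sh-NC and at 213, 213 and 217 in sh-CLGN. All sh-CLGN libraries lay above all sh-NC libraries. The mean rose 1.84-fold, from 117 ± 8.57 to 215 ± 2.34, with a log2 fold change of 0.87 (SE 0.06). Only SLC3A2 and SLC38A2 among the members were called higher, under each of the alternative analyses tried.

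SLC7A5 (LAT1, chr16:87830023-87869488, minus strand), the light chain that imports leucine and other large neutral amino acids in exchange for glutamine, moved the other way. It stood at 151, 150 and 132 FPKM in sh-NC and at 43.0, 44.2 and 47.4 in sh-CLGN. The mean went from 144 ± 10.5 to 44.9 ± 2.27, 31.1% of sh-NC, with a log2 fold change of -1.66 (SE 0.07). With the pseudocount of 1 and the deposited scaling it ranked 41 among the falls of all tested genes. The pseudogene SLC7A5P1, to which reads of SLC7A5 could be assigned, stood at 1.40 to 2.41 FPKM over the 6 libraries, and SLC7A5P2 had no read.

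SLC7A11 (xCT, chr4:138164097-138242349, minus strand), the light chain that imports cystine for glutathione synthesis in exchange for glutamate, stood at 13.8, 13.2 and 16.6 FPKM in sh-NC and at 6.77, 6.01 and 6.60 in sh-CLGN. The groups were apart, with the higher spread in sh-NC. The mean went from 14.5 ± 1.79 to 6.46 ± 0.398, 44.5% of sh-NC, with a log2 fold change of -1.05 (SE 0.09). An antisense transcript, SLC7A11-AS1, shares 865 exon bases with it and reached at most 0.178 FPKM.

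SLC7A6 (y+LAT2, chr16:68264516-68301823, plus strand), the light chain that exports arginine in exchange for glutamine, stood at 4.71, 4.74 and 5.14 FPKM in sh-NC and at 4.44, 4.45 and 4.82 in sh-CLGN. The groups overlapped, and the log2 fold change of -0.07 (SE 0.06) changed sign with the scaling. SLC7A6OS, on the opposite strand, shares 3371 exon bases with it and stood at 1.29 to 1.95 FPKM. The strand setting of the counting is not given in the sources used here, so how reads over the shared bases were counted is not known.

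The balance of heavy and light chain transcripts differed between the groups. The light chains that pair with SLC3A2 (SLC7A5, SLC7A6, SLC7A11, SLC7A7, SLC7A8 and SLC7A10) summed to 174 ± 9.40 FPKM in sh-NC and 66.1 ± 2.37 in sh-CLGN. SLC3A2 over that sum was 0.662, 0.696 and 0.657 in sh-NC against 3.32, 3.27 and 3.16 in sh-CLGN. In FPKM, the heavy chain was thus below the summed light chains in every sh-NC library and above them in every sh-CLGN library. FPKM divides by an annotated gene length, 5178 bases for SLC3A2 and 4745 for SLC7A5, which can exceed the transcript in use. Whether heavy or light chain transcripts were more numerous within a group is therefore not settled by these values. SLC7A5 made up 82.9% ± 1.69 of the light chain sum in sh-NC and 67.8% ± 1.02 in sh-CLGN. The share of SLC7A11 was 8.41% ± 1.51 and 9.77% ± 0.669, with overlapping libraries. These are ratios of transcript, not of protein at the membrane.

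**Figure D2:**
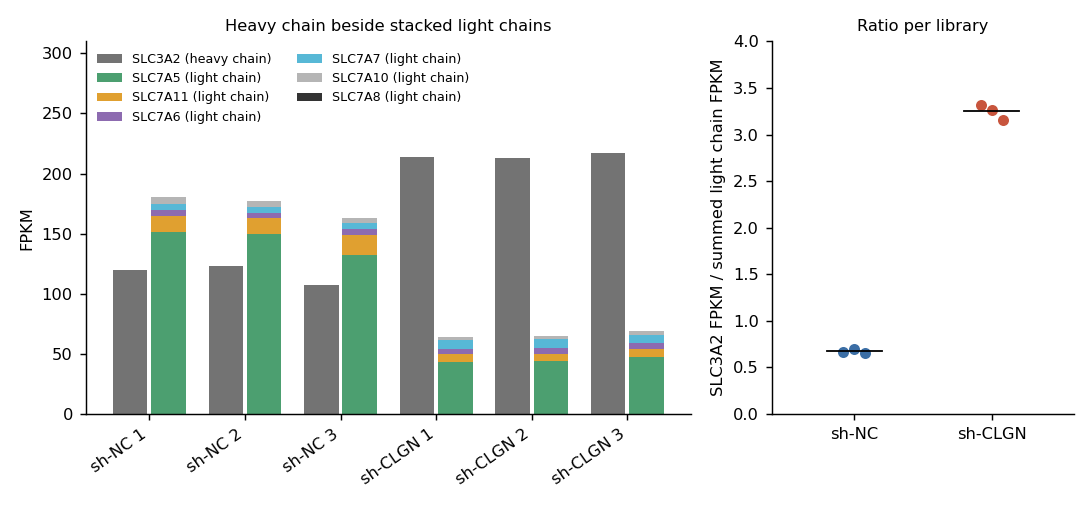
Left, FPKM of SLC3A2 (dark grey bar) beside the stacked FPKM of its 6 light chains in each library. Right, SLC3A2 over the summed light chains, with a point for each library and a line for the group mean. The ratio lies between 0.657 and 0.696 in sh-NC but between 3.16 and 3.32 in sh-CLGN.

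SLC1A4 (ASCT1, chr2:64988477-65023865, plus strand), an exchanger of alanine, serine, cysteine and threonine, stood at 19.7, 20.5 and 19.1 FPKM in sh-NC and at 9.38, 10.5 and 10.8 in sh-CLGN. The groups were apart by far more than their spread. The mean went from 19.8 ± 0.685 to 10.2 ± 0.747, 51.8% of sh-NC, with a log2 fold change of -0.89 (SE 0.06).

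SLC1A5 (ASCT2, chr19:46774883-46788594, minus strand), an exchanger best known for glutamine uptake in proliferating cells, stood at 85.7, 90.8 and 75.9 FPKM in sh-NC and at 54.3, 52.1 and 55.8 in sh-CLGN. It too was lower in every sh-CLGN library. The mean went from 84.1 ± 7.59 to 54.1 ± 1.83, 64.3% of sh-NC, with a log2 fold change of -0.62 (SE 0.07), and of -0.33 under quantile normalization. The ratio of SLC1A5 to SLC1A4 was 4.25 ± 0.245 in sh-NC and 5.31 ± 0.436 in sh-CLGN, without overlap.

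SLC38A1 and SLC38A2 lie 88.2 kb apart on chromosome 12, on the same strand and with no protein-coding gene between them, and they differed in direction. SLC38A1 (SNAT1, chr12:46183063-46270017) stood at 37.9, 38.5 and 46.4 FPKM in sh-NC and at 18.7, 19.9 and 19.6 in sh-CLGN. Its mean went from 40.9 ± 4.73 to 19.4 ± 0.664, 47.4% of sh-NC, with a log2 fold change of -1.03 (SE 0.08). Every sh-CLGN library was lower.

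SLC38A2 (SNAT2, chr12:46358189-46372867), the carrier best known for its induction when amino acids are withdrawn, stood at 72.7, 69.8 and 81.3 FPKM in sh-NC and at 90.2, 92.6 and 88.5 in sh-CLGN. Here every sh-CLGN library was higher. The mean went from 74.6 ± 5.98 to 90.4 ± 2.02, 1.21-fold, with a log2 fold change of 0.28 (SE 0.06). The size depended on the processing, at 0.10 after correction for GC content and 0.57 under quantile normalization. SLC38A1 over SLC38A2 was 0.548 ± 0.0250 in sh-NC and 0.214 ± 0.00741 in sh-CLGN.

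**Figure D3:**
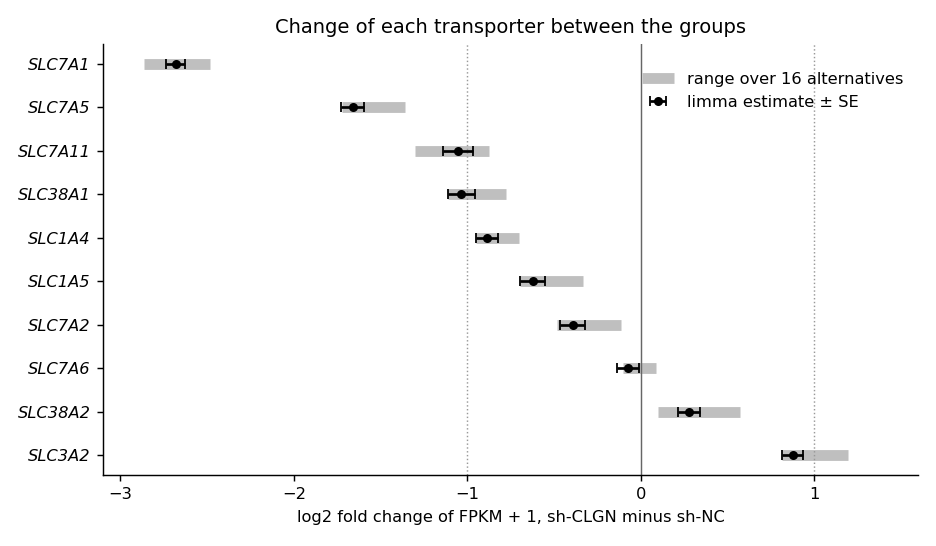
Log2 fold change of each gene on the log2(FPKM + 1) scale, sh-CLGN minus sh-NC, with a point and bar for the limma estimate and its SE, a grey band for the range over the alternative analyses, and dotted lines at -1 and 1. SLC7A1 at -2.68 lies apart from SLC7A5 at -1.66, and the band of SLC7A6 crosses 0.

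The order of the levels, which between genes also rests on the gene lengths behind FPKM, changed between the groups. In sh-NC it ran SLC7A5, SLC3A2, SLC1A5, SLC7A2, SLC38A2, SLC7A1, SLC38A1, SLC1A4, SLC7A11 and SLC7A6, from 144 to 4.87 FPKM. The library ranges overlapped between the neighbours SLC1A5 and SLC7A2, SLC7A2 and SLC38A2, and SLC7A1 and SLC38A1. In sh-CLGN it ran SLC3A2, SLC38A2, SLC7A2, SLC1A5, SLC7A5, SLC38A1, SLC1A4, SLC7A11, SLC7A1 and SLC7A6, from 215 to 4.57 FPKM, with overlaps between SLC7A2 and SLC1A5 and between SLC7A11 and SLC7A1. SLC7A5 thus moved from the first place to the fifth. The 10 genes summed to 623 ± 10.9 FPKM in sh-NC and 509 ± 6.98 in sh-CLGN, of which SLC3A2 made up 18.8% ± 1.11 and 42.2% ± 0.319. The GC content of the genes ran from 35.4% in SLC7A11 to 61.3% in SLC1A5, over much the same range as the tested genes (38.5% at percentile 10 and 61.4% at percentile 90).

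The profiles most like that of SLC7A1 were found by the Euclidean distance between log2(FPKM + 1) values over the 6 libraries, each gene centred on its mean. The closest of the tested genes was EGR1, an immediate early transcription factor, at a distance of 0.238, which stood at 19.2 ± 1.44 FPKM in sh-NC and 2.32 in sh-CLGN. Next came SLC51B, a subunit of the basolateral bile acid transporter, at 0.399, LCT (lactase) at 0.490, G0S2, an inhibitor of triglyceride lipase, at 0.516, and GC (vitamin D binding protein) at 0.526. With 2 groups this measure mostly finds genes of a like fall.

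Beyond the 10 genes, transporters of the same families were read from 3 lists with 44 genes, of which 24 were tested. Of these 24, 5 were called higher and 11 lower at the same adjusted p limit, with a median log2 fold change of -0.10. Over all 13074 tested genes 26.7% were called higher and 39.0% lower, with a median of -0.08. Among the other partners of heavy chains, SLC7A7 (y+LAT1), a light chain of SLC3A2 that exports arginine, rose from 4.98 ± 0.211 to 7.28 ± 0.537 FPKM (log2 fold change 0.47, limma adjusted p = 0.00047). SLC7A10 (Asc-1), another light chain of SLC3A2, fell by 0.64 on the log2 scale, to 2.87 FPKM (limma adjusted p = 0.00086). The heavy chain SLC3A1, the partner of the renal carrier SLC7A9, had at most 5 reads and SLC7A8 (LAT2) at most 17, and neither was tested.

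Of 26 carriers of neutral, anionic and imino acids 13 were tested, 4 called higher and 7 lower. SLC1A3, a sodium-coupled glutamate and aspartate importer, stood at 0.832 ± 0.152 FPKM in sh-NC and 8.71 ± 0.734 in sh-CLGN (log2 fold change 2.41, SE 0.09). It was below 1 FPKM in every sh-NC library and passed the filter only through sh-CLGN. The same held for SLC38A11, also counted as higher. Both are therefore given as a description. SLC6A14, an importer of neutral and cationic amino acids, fell from 13.0 ± 0.998 to 3.36 ± 0.306 FPKM (log2 fold change -1.68). The taurine carrier SLC6A6 and the neutral amino acid carrier SLC6A19 also fell, with log2 fold changes of -1.23 and -1.11. Of 9 carriers listed as lysosomal, all tested, 3 fell and 6 were not called, with a median of 0.02. Where in these cells each acts was not tested. The 3 were the proton-coupled carrier SLC36A1 (-1.11), the cysteine importer MFSD12 (-1.06) and SLC38A10 (-0.77).

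**Figure D4:**
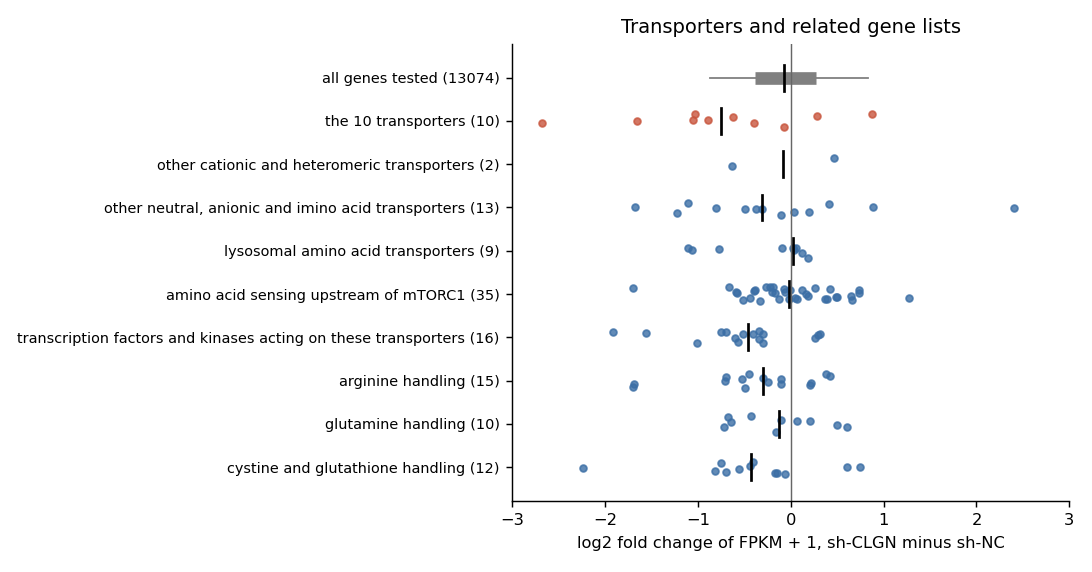
Log2 fold change of the tested genes of each list on the log2(FPKM + 1) scale, sh-CLGN minus sh-NC, with a point for each gene and a bar for the median of the list. The top row gives all tested genes, with a thick bar from percentile 25 to 75 and a thin line from percentile 5 to 95. The median of the 10 members is -0.76, that of the carriers listed as lysosomal 0.02 and that of the transcription factors and kinases -0.46.

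The 5 lists of genes that sense or use the transported amino acids held 96 genes, of which 88 were tested. Of these, 23 were higher and 47 lower, with a median of -0.22. The counts of these lists stand beside 26.7% higher and 39.0% lower over all tested genes. Among 16 transcription factors and kinases that act on these transporters all were tested, 3 higher and 13 lower. ATF3, a stress-induced partner of ATF4, fell by 1.91 on the log2 scale and TRIB3, a pseudokinase induced by ATF4, by 1.56, with limma adjusted p of 4.2e-07 and 2.7e-06. MLXIP, an E-box factor responsive to glucose, fell by 1.01. ATF4 itself fell from 250.05 ± 11.4 to 168 ± 3.39 FPKM (-0.57) and MYC from 39.3 ± 2.65 to 23.8 ± 1.08 (-0.70). NFE2L2, which encodes NRF2, fell by 0.34 on the log2 scale. Among the 3 that were higher, EIF2AK3, which encodes the kinase PERK, rose by 0.31 and ATF5 by 0.29.

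In the arginine list 15 of 19 genes were tested, 3 higher and 9 lower. ODC1, which makes the polyamine putrescine from ornithine, fell from 211 ± 4.03 to 64.3 ± 3.38 FPKM (log2 fold change -1.70, limma adjusted p = 7.2e-07). ARG1, the liver arginase that makes ornithine from arginine, fell from 24.6 ± 2.71 to 6.94 ± 1.13 (-1.69), and AGMAT by 0.70 on the log2 scale. In the cystine and glutathione list all 12 were tested, 2 higher and 7 lower. CHAC1, which degrades glutathione, fell from 52.4 ± 5.66 to 10.3 ± 0.315 FPKM (log2 fold change -2.24, limma adjusted p = 1.2e-06), TXNRD1 fell by 0.70, and the iron exporter SLC40A1 rose by 0.74. In the glutamine list 10 of 12 were tested, 3 higher and 5 lower, with PFAS, GLUD1 and the glutamine synthetase GLUL lower by 0.72, 0.68 and 0.64 on the log2 scale.

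Of 37 genes that sense amino acids upstream of mTORC1, the growth kinase complex that leucine and arginine activate, 35 were tested, 12 higher and 13 lower, with a median of -0.02. The leucine sensor SESN2 fell from 65.3 ± 4.76 to 19.4 ± 1.54 FPKM (log2 fold change -1.70, limma adjusted p = 2.3e-06). Its relative SESN3 rose from 2.76 ± 0.345 to 8.08 ± 0.727 (1.27, adjusted p = 1.4e-05 by limma). RRAGD, a GTPase of the sensing complex on the lysosome, rose by 0.74.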

How the data were processed

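RNA of 3 sh-NC and 3 sh-CLGN libraries of Hep-G2 was measured. The authors deposited 1 table of FPKM per gene and library. The submitters' processing notes name HISAT2 2.0.5, featureCounts and GRCh38, and all 58735 gene positions equalled GENCODE 29. The strand setting is not given in the sources used here. The product of FPKM and gene length moved in steps of whole reads (tolerance 0.01 of a read), from which the reads per gene were recovered (14955816 to 16244639 per library). The FPKM already held a scaling between libraries. The 13074 genes that reached 1 FPKM in 3 or more libraries were compared by limma 3.58.1 (R 4.3.3, eBayes with trend, two-sided) on log2(FPKM + 1), with Benjamini-Hochberg adjustment over all of them. A gene could reach this limit in the libraries of 1 group alone. The pseudocount of 1 understates the change of low genes. An exact permutation test of 3 against 3 cannot go below p = 0.1 and was not used. The labels do not say whether the numbers 1 to 3 pair the libraries, and the comparison was run unpaired.

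The members, the lists and the tests were chosen with earlier results of these data known. Named from each list were genes past both thresholds, topped up to 3 by adjusted p, and SLC3A1, SLC7A7 and SLC7A8 as partners of members. ATF4, MYC, NFE2L2, EIF2AK3, ATF5, ASNS, SLC38A4, SESN1 and COL1A2 were named after their values were seen. Sequences came from GRCh38 with GENCODE 29 and, for promoters, from RefSeq. Protein features were not analysed here. Alternatives were another pseudocount, no filter, protein-coding genes only, TPM, quantile normalization, read totals, voom, no trend, a GC correction, a replicate block and leaving out each library.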

Additional observations from a re-analysis of the deposited data

How the results depend on the processing

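The 9 called members kept their direction under all 10 alternatives and with each of the 6 libraries left out. They also kept their side of the adjusted p limit, except SLC7A2. It reached -0.11 and was not called under quantile normalization, leaving 8 members called there. These fits reuse the 6 libraries in which SLC7A1 was selected, so they describe the processing and are no support for the differences. On the fold limit SLC3A2 passed 1 under TPM (1.01), quantile normalization (1.19), read totals (1.07) and the GC correction (1.11). SLC7A11 fell short under quantile normalization (-0.92), read totals (-0.88) and without sh-NC replicate 3 (-0.96), and SLC38A1 under these (-0.78, -0.85 and -0.94) and TPM (-0.94). The sign of SLC7A6 turned under TPM (0.035), scaling by read totals (0.087) and the GC correction (0.013), and the cause was not tested. SLC7A1 ranged from -2.86 with voom to -2.49 with the GC correction, and from -2.71 to -2.64 without single libraries. TPM, read totals and the GC correction moved the median of all genes by 0.12, 0.17 and 0.11. Calls at the adjusted p alone were 5102 lower and 3496 higher, 3923 and 4285 with TPM, and 3421 and 4956 with read totals. Genes past both thresholds numbered 821 (404 higher, 417 lower), 784 to 902 without single libraries, 1606 with a pseudocount of 0.1, 1426 with TPM and 1722 with voom on recovered reads. The higher calls numbered 925, 1002 and 989 in these 3 and 249 with protein-coding genes only, and the lower calls 681 with the pseudocount of 0.1, 733 with voom, 235 with read totals and 241 with the GC correction. The share of higher calls was 70.3% with TPM, 72.0% with read totals, 66.8% with the GC correction and 38.8% with protein-coding genes only. With a replicate block 821 genes passed, 818 of them shared with the fit without it, and it changed no call of a member. Libraries of the same number correlated at -0.02, -0.05 and -0.15 in their deviations from the group means. Calls in the lists of other transporters numbered 15 to 19 (9 higher with read totals and 8 with the GC correction, against 5) and in the 5 pathway lists 62 to 72 over these alternatives. Each group rests on 1 hairpin sequence, and FPKM says nothing of protein or transport.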

Other observations

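A few other genes of the same lists are named here after their values were seen. ASNS, the asparagine synthetase and a known target of ATF4, stood at 1.86 ± 0.145 FPKM in the controls and 1.65 ± 0.163 with the CLGN hairpin (SD, n = 3 each), with overlapping libraries, 110 to 132 reads and a limma adjusted p of 0.30. SLC38A4, a carrier of the same family as SLC38A1 and SLC38A2, rose from 3.71 ± 0.634 to 7.64 ± 0.540 FPKM (log2 fold change 0.88). SESN1 rose by 0.50 on the log2 scale, from 2.63 ± 0.258 to 4.13 ± 0.029 FPKM.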
